A study of Drosophila melanogaster with 6 samples.

Results

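The ecdysone pathway nuclear receptors are a family of ligand-regulated transcription factors that relay pulses of the steroid hormone 20-hydroxyecdysone in insects. The 9 members described here, EcR, usp, Eip75B, Eip78C, Hr3, Hr4, Hr39, ftz-f1 and ERR, were taken by gene symbol from the 16496 features of the matrices, and each symbol matched 1 feature. They were followed in single-cell RNA sequencing of the first tarsal segment of the Drosophila melanogaster foreleg, the segment that carries the sex comb in males. Each of the 6 groups is 1 library of 65 to 70 pooled segments from pupae aged at 25°C, so no spread between animals can be estimated and no test between groups was possible. The 12 h female, 12 h male, 20 h male and 36 h male pupae (hours after puparium formation) carried dsx-GAL4 > UAS-mCherry. The 16 h male pupae carried dsx-GAL4 > UAS-GFP, and the 24 h female pupae were of the strain RAL-517 and had neither transgene in the labels. The driver marks cells that express doublesex, the gene at the end of the sex determination cascade, but all cells of the segment were sequenced.

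Ecdysone binds a heterodimer of EcR, the hormone receptor, and usp, the fly orthologue of the vertebrate retinoid X receptor. The bound receptor switches on early genes, among them Eip75B and Eip78C, and a later wave that includes Hr3, Hr4 and Hr39; several of these receptors then act on each other, with Hr3 promoting ftz-f1 and Eip75B able to block Hr3. In the prepupa ftz-f1 follows the fall of the hormone and prepares cells for the next pulse. The pupal pulse that follows drives adult cuticle formation in the leg, and ERR, the fly estrogen-related receptor, is best known as a regulator of sugar metabolism.

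After filtering, the libraries held 9709 to 12376 cells and 58536481 to 152704983 unique molecular identifiers (UMIs, 1 per captured RNA molecule). The 16 h male library was the shallowest, with a median of 5089 UMIs per cell against 8106 to 12069 in the others. Pairs of libraries shared 18 to 43 cell barcodes. All 9 epithelial markers were above 50 UMIs in every library, and Scr, the Hox gene that specifies the first leg, was at 180 to 270 UMIs per 1000000 UMIs of a library (CPM). In the 24 h female library 256 of 12376 cells carried UMIs of the male-specific roX RNAs at the level used to mark male cells. The 36 h segments were dissociated for 45 min rather than 35 min, which cannot be told apart from age. Clusters of cells were named by marker genes and are written "-like": epithelium-like cells were 38.7% to 57.0% of each library, and neuron-, glia- and hemocyte-like cells were named in all 6. Sheath-, tendon- and muscle-like cells were named in 4, 4 and 5 libraries, and socket-, shaft- and sensory precursor-like cells in 3 each. Clusters with the leg joint gene TfAP-2 among their leading genes were epithelium-like at 12 h and 36 h. Such clusters were unnamed at 16 h (800 and 605 cells), at 20 h (671 and 407) and in the 24 h female (1064). Epithelium-like cells therefore differ in make-up between ages.

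Levels are CPM of UMIs summed over cells, with exact Poisson 95% intervals that cover counting error only. A library sum mixes cell classes, so fewer cells of a type and less RNA per cell cannot be told apart in it. These are counts of tags near transcript 3′ ends and are not scaled by length, so levels are compared between libraries and classes and not between genes. A ratio of 2 libraries is called when it is at least 2-fold, that is a log2 ratio of at least 1 in size.

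EcR (2R:6087873-6169087, minus strand; positions are those of BDGP6) was at 347 CPM in the younger female library, and at 265, 323, 337 and 162 CPM over the male ages (12, 16, 20 and 36 h, the order used for every gene). The 24 h female library had the highest level, 404 CPM (400 to 407), and the 36 h male library stood below all others (160 to 165). No neighbours in the order of the 6 levels had overlapping counting intervals. From 20 h to 36 h the log2 ratio was -1.05 (-1.08 to -1.02), which passed 2-fold by a small margin and fell just short of it, at -0.99, when only cells with at least 1000 genes were kept. The smaller differences from 12 h to 16 h in males, 0.29, and from 12 h to 24 h in females, 0.22, changed sign to -0.02 and -0.12 when each cell was given equal weight. Thinned to 2000 UMIs per cell, 47.0% of 12 h female cells and 25.2% of 36 h male cells held an EcR UMI, against 85.9% and 62.7% at full depth.

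The receptor's partner usp (X:2038798-2042311, minus strand) varied little. Its levels were 19.8 and 26.2 CPM in females at 12 and 24 h, and 19.5, 13.4, 13.8 and 17.6 CPM over the male ages. The highest was 1.95 times the lowest, and usp was called in none of the 5 comparisons under any setting tried. The intervals of the 12 h female and 12 h male libraries overlapped, as did those of the 20 h and 16 h male libraries. In the annotation 265 exon bases of usp lie in the same-strand gene Actn, so reads there may belong to either gene.

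Eip75B (3L:17950953-18064696, minus strand) encodes a heme-binding receptor of the early response. It was at 297 CPM in the 12 h male library, 442 at 16 h, 576 at 20 h and 432 at 36 h, and at 343 and 754 CPM in females at 12 and 24 h. Its highest library was thus the 24 h female, and the male libraries were highest at 20 h. The female ratio was called, at a log2 ratio of 1.14 (1.12 to 1.15), but was 0.99 in epithelium-like cells alone. In this pair only the 12 h epithelium-like cells included a cluster with TfAP-2 among its leading genes.

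Eip78C (3L:21226609-21266503, plus strand), a related early receptor, covered a far wider range. Its levels were 14.1, 17.1, 50.6 and 533 CPM over the male ages, and 17.3 and 35.7 CPM in the younger and older females. The 36 h male library (529 to 538) stood alone, with a log2 ratio to 20 h of 3.40 (3.36 to 3.44). The step from 16 h to 20 h was also called, at 1.57 (1.47 to 1.67). The female ratio of 1.05 was called but was 0.79 in epithelium-like cells alone and 0.90 as a mean over cells. In cells thinned to 2000 UMIs the share with an Eip78C UMI was 3.24% in the 12 h male library, 8.85% at 20 h and 53.9% at 36 h.

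Hr3 (2R:10203995-10237348, minus strand), the early-late receptor that promotes ftz-f1, was low except at 36 h. It had 376 UMIs in the 12 h female library (3.15 CPM), 67 in the 12 h male (0.54 CPM), 81 at 16 h (1.38 CPM), 289 at 20 h (2.80 CPM), 254 in the 24 h female (1.66 CPM) and 7815 at 36 h (78.8 CPM). The 36 h male library was 4.82 higher than the 20 h library on the log2 scale (4.65 to 4.99). Most exon bases of Hr3 are shared in the annotation with same-strand genes, 6466 with CG12912 and 6071 with CG46321. Both of these were listed at 0 UMIs in every library, and 228 bases are shared with lncRNA:CR46322, which had 2726 UMIs at 36 h and at most 44 elsewhere. The sources used here do not say how reads in shared bases were assigned, so the level of Hr3 is uncertain.

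Hr4 (X:1941940-2007956, plus strand), another receptor of the later wave, had male levels of 7.51, 10.7, 19.3 and 150 CPM by age, and female levels of 10.4 and 31.4 CPM. The male levels were ordered by age, with no overlap of intervals between neighbouring ages. The log2 ratio was 2.96 (2.89 to 3.03) from 20 h to 36 h and 1.59 between the females. The step from 16 h to 20 h was not called at 0.85 but reached 1.04 under trimmed-mean (TMM) scaling.

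Hr39 (2L:21237250-21259675, plus strand), which binds sites like those of ftz-f1, showed the same order with small steps. The males had 65.1, 78.6, 96.8 and 144 CPM by age, and the females 74.5 and 99.2 CPM. No ratio was called, and the largest was 0.57 (0.53 to 0.61) from 20 h to 36 h.

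The competence factor ftz-f1 (3L:18750607-18801309, minus strand) ran the other way at first. It was highest in the 12 h female library at 40.0 CPM (38.9 to 41.1), and males had 22.8, 14.8 and 10.4 CPM up to 20 h and 18.9 CPM at 36 h. The 24 h female library was the lowest at 6.30 CPM (5.91 to 6.71). The female ratio was called at -2.67 (-2.77 to -2.57), while none of the male steps, -0.62, -0.51 and 0.86, was. In the annotation 2521 exon bases are shared with lncRNA:CR45939, which had at most 20 UMIs in a library.

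ERR (3L:8183361-8186671, minus strand) was the steadiest member. Its levels were 5.79 and 5.94 CPM in females, and 5.83, 4.82, 4.63 and 4.55 CPM over the male ages. All neighbours in the order overlapped in their intervals, and the highest was 1.31 times the lowest. Antisense genes cover 416 and 735 of its exon bases.

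**Figure D1:**
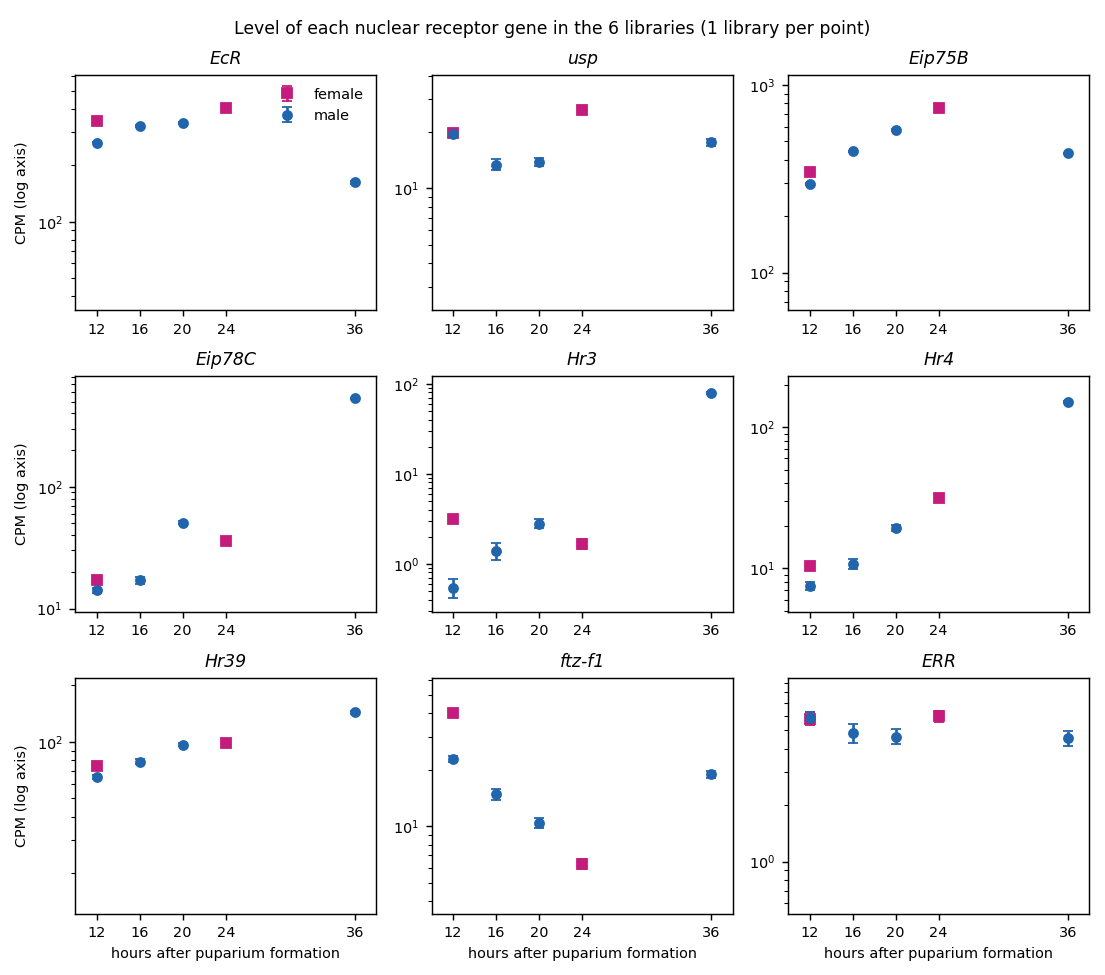
CPM of each of the 9 genes on a log axis against hours after puparium formation, 1 library per point, squares for female and circles for male libraries, with exact Poisson 95% intervals. Eip78C, Hr3 and Hr4 are highest in the 36 h male library, EcR is lowest there at 162 CPM, and ERR stays between 4.55 and 5.94 CPM.

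The sexes were set side by side at 12 h, where the genotype was the same. Hr3 alone was called, lower in the male library by 2.55 on the log2 scale (-2.94 to -2.17), so 1 of 9 members, where 7.79% of all features were called lower and 11.2% in either direction. The next was ftz-f1, with 22.8 CPM in the male and 40.0 CPM in the female (-0.81, -0.88 to -0.74). The other ratios lay between -0.47 for Hr4 and 0.01 for ERR, and the median was -0.29 over the members and 0.03 over all features. The ftz-f1 difference had the same sign in all 6 classes with enough UMIs, from -1.49 (-1.83 to -1.16) in tendon-like and -1.25 in muscle-like to -0.45 in hemocyte-like cells, whose interval reached 0.02. Hr4 differed more in epithelium-like cells than in the library sum, with 1.85 CPM in the male and 6.58 CPM in the female (-1.83, -2.13 to -1.54), while its neuron-like levels of 69.5 and 84.2 CPM had overlapping intervals. Epithelium-like cells differed in make-up here, at 38.7% of male and 56.8% of female cells. A male cluster of 436 cells led by wg was unnamed, and only the female class held a cluster led by Dro and AttA (260 cells). EcR was lower in the male in 5 of 7 classes beyond counting error and within it in 2. The hemocyte-like classes of these 2 libraries were not alike: the 609 female cells had a median of 3500 UMIs and the 546 male cells one of 12774.5, and a male cluster of 516 cells with hemocyte markers, at a median of 1537.5 UMIs, was unnamed.

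From 12 h to 16 h in males, 1 member was called higher, Hr3 at 1.36 (0.87 to 1.85), where 9.45% of all features were called higher and 20.4% in either direction; Eip75B at 0.57 and Hr4 at 0.52 followed. The reporter differs between these 2 libraries as well as age, and the cells of the 16 h library held a median of 5089 UMIs against 10880. From 16 h to 20 h, 2 members were called higher, Eip78C at 1.57 and Hr3 at 1.02 (0.66 to 1.39), where 8.81% of features were called higher and 22.7% in either direction. The Hr3 call was lost at 0.94 when doublets were kept and at 0.85 in cells with at least 1000 genes. From 20 h to 36 h, Hr3, Eip78C and Hr4 were called higher and EcR lower, 4 of 9 members, where 20.3% of features were called higher, 13.7% lower and 34.0% in either direction. From 12 h to 24 h in females, Hr4, Eip75B and Eip78C were called higher and ftz-f1 lower, again 4 of 9, where 12.8% of features were called higher, 13.4% lower and 26.3% in either direction; Hr3 was lower by 0.92 without being called. Age and genotype cannot be told apart in the female pair. The shares called among members are read against few genes and a high background, and in the female pair each rests on 1 library of each strain.

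**Figure D2:**
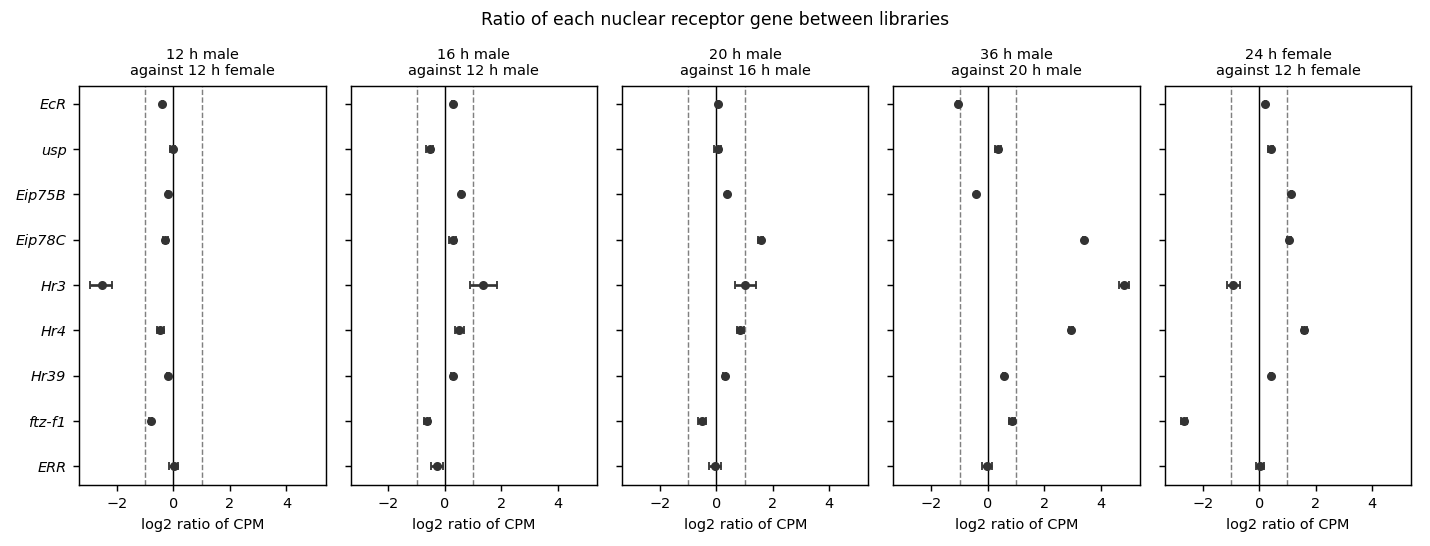
Log2 ratio of CPM for each gene in the 5 comparisons, with exact conditional binomial 95% intervals for counting error and dashed lines at 2-fold. The widest ratios are those of Hr3, from -2.55 between the sexes at 12 h to 4.82 from 20 h to 36 h.

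Within libraries the members were spread unevenly over the cell classes. Several unnamed clusters carried most of the neuron markers and are not in the neuron-like class. They included clusters of 117, 66 and 57 cells at 36 h, 163 at 20 h and 129 in the 24 h female library. Eip75B was highest in neuron-like cells in all 6 libraries. Its neuron-like level was 713, 990, 1415 and 1664 CPM over the male ages, and 910 and 1650 CPM in the younger and older females. Epithelium-like cells held 281, 404, 475 and 335 CPM in those males and 357 and 709 CPM in those females, so the intervals of the classes overlapped in no library. Sheath-like cells, the support cells around the sensory dendrite, came second in 3 of the 4 libraries in which they were named, with 1124 CPM in the 24 h female library.

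Hr4 was also highest in neuron-like cells in 4 libraries and in hemocyte-like cells, the blood cells of the fly, in the other 2. At 16 h the neuron-like interval of Hr4 overlapped the hemocyte-like one, and at 20 h the hemocyte-like interval overlapped the sheath-like one. Its neuron-like level was 69.5, 48.6, 72.6 and 908 CPM over the male ages and 84.2 and 141 CPM in the females. Hemocyte-like cells held 18.4, 46.4, 104 and 452 CPM in the males and 29.7 and 172 CPM in the females. Epithelium-like cells were at 1.85 to 15.2 CPM up to 24 h and 67.4 CPM at 36 h, below both. At 36 h, sheath- and glia-like cells were at 450 and 345 CPM while shaft-like cells, the bristle-forming cells, were at 56.9 CPM. After thinning to 2000 UMIs, 84.4% of neuron-like, 12.3% of epithelium-like and 8.8% of shaft-like cells of that library held an Hr4 UMI.

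Eip78C was low in the neuron-like cells in which Hr4 was high, but not in these alone. Sensory precursor- and socket-like cells were also low, at 1.98 to 6.25 and 3.56 to 7.95 CPM in the 3 libraries that named each. Neuron-like cells were the lowest named class in 2 libraries, at 20 h and 36 h. Hemocyte-like cells were highest in 5 of 6 libraries, with 26.2 and 174 CPM in the females and 19.9, 41.8, 140 and 1511 CPM in the males. The exception was the 12 h male library, where sheath-like cells held 36.8 CPM (24.3 to 53.6), with an interval that overlapped that of the next class. Hemocyte-like intervals overlapped those of muscle-like cells in the 12 h female (21.6 CPM) and of glia-like cells at 16 h (31.1 CPM). Neuron-like cells were at 5.1 to 11.6 CPM up to 24 h and at 42.8 CPM (36.0 to 50.5) at 36 h, when epithelium-like cells held 480 CPM and glia-like cells 776 CPM. Muscle-like cells were at 113 CPM (97.0 to 131) in males at 20 h, with an interval that overlapped that of hemocyte-like cells, and at 123 CPM (110 to 137) in the older females, where the intervals did not overlap. At those ages 85 of 118 and all 170 muscle-like cells came from a cluster led by CG33557. Both clusters were named on zfh1, htl and Him, while the muscle markers twi, Mef2, sls and Act57B did not pass in them. The high Eip78C there may thus not be that of muscle. Clusters with the same leading gene were unnamed in the 12 h and 16 h libraries, so muscle-like cells are not compared across ages. Among the named classes, neuron-like cells thus had the highest Hr4 and the lowest Eip78C at 36 h. After thinning, 8.4% of these neuron-like cells held an Eip78C UMI against 92.6% of hemocyte-like cells.

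**Figure D3:**
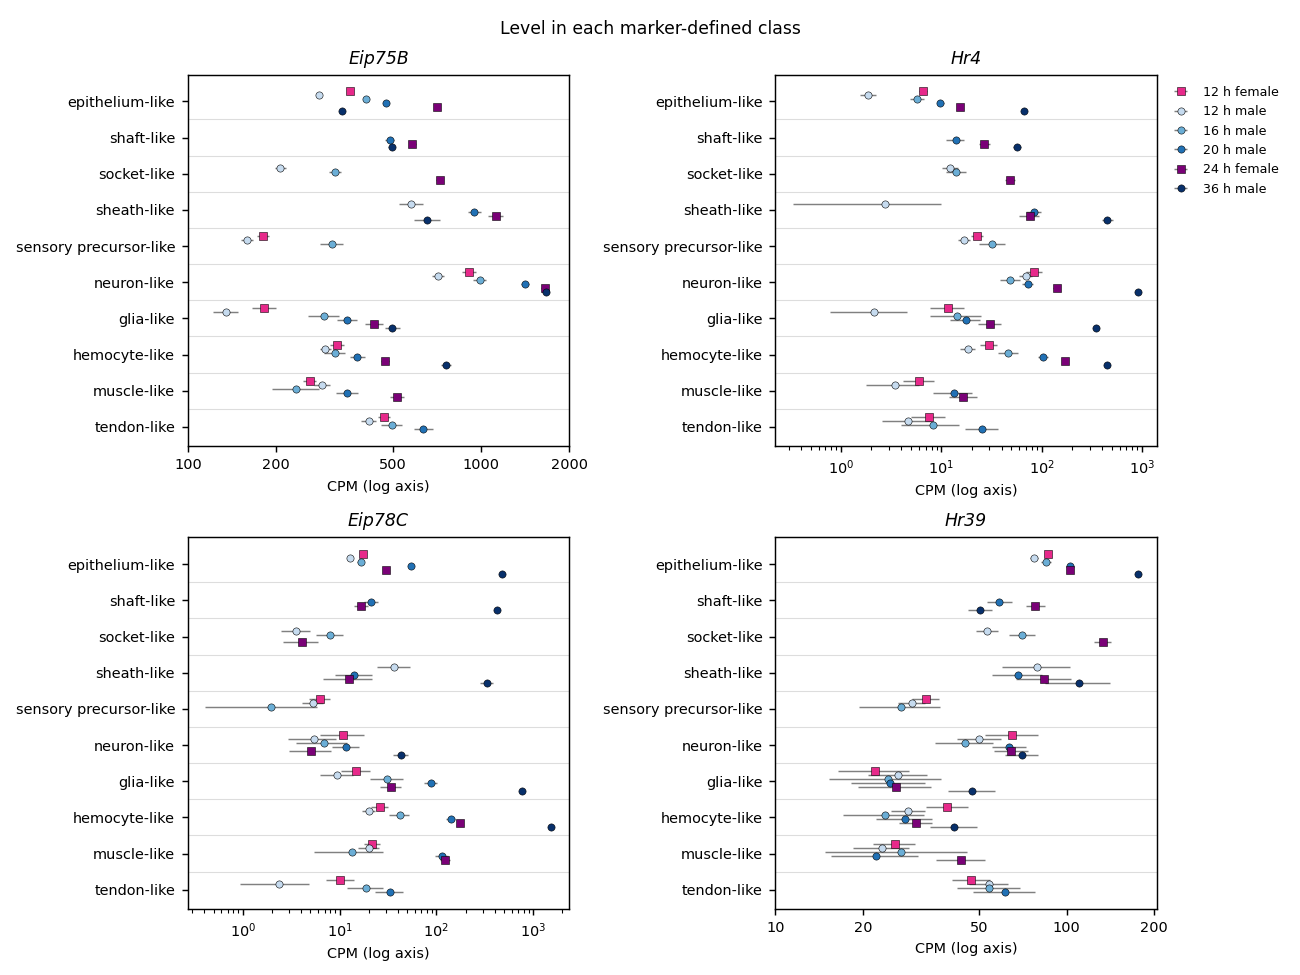
CPM on a log axis of Eip75B, Hr4, Eip78C and Hr39 in each marker-defined class with at least 50 cells, 1 point per library, with exact Poisson 95% intervals; a class at 0 UMIs has no point. Neuron-like cells are to the right for Eip75B and Hr4. For Eip78C they are to the left, as are sensory precursor- and socket-like cells. Epithelium-like cells are at or near the right for Hr39.

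Hr39 was among the highest in epithelium-like cells. Epithelium-like cells were highest in 4 libraries and second in the other 2, with 77.2, 85.1, 103 and 176 CPM in the males and 86.6 and 103 CPM in the females. Glia-, hemocyte- and muscle-like cells stayed between 21.9 and 47.4 CPM in every library. Socket-like cells reached 133 CPM in the 24 h female library, above its epithelium-like cells.

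EcR itself was less restricted. It was highest in sheath-like cells in 3 of the 4 libraries that had them and in tendon-like cells, which anchor muscle to cuticle, in another 2. The top intervals overlapped at 20 h, for tendon- and sheath-like cells, and at 36 h, for sheath- and shaft-like cells. Sensory precursor-like cells had the lowest level at 12 h, at 140 CPM in the female and 96.2 CPM in the male library against 364 and 261 CPM in epithelium-like cells.

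The lower EcR at 36 h was not seen in all classes. Epithelium-like cells went from 315 to 133 CPM, glia-like from 242 to 138 CPM and hemocyte-like from 279 to 101 CPM, with log2 ratios of -1.25, -0.81 and -1.46. Neuron-like cells went from 213 to 285 CPM and shaft-like cells from 263 to 328 CPM, and their ratios of 0.42 (0.28 to 0.56) and 0.32 (0.24 to 0.41) were above 0. Sheath-like cells held 378 and 363 CPM, which overlap. The sheath-like class at 20 h was 200 cells, but 63 at Leiden resolution 2. There a cluster of 231 cells with sensory precursor markers was unnamed, so the class may not hold the same cells at both ages. After thinning to 2000 UMIs the ratios kept their signs, with -1.26 in epithelium-like, 0.31 in neuron-like and 0.33 in shaft-like cells, and -0.28 in glia-like cells. The difference between classes was not tested, since each is 1 library at each age. The neuron-like class at 20 h was 1 cluster of 340 cells, which also passed the sensory precursor markers ase, phyl, sca and scrt. At Leiden resolution 2 it was 247 cells, and at both resolutions a cluster of 163 cells with most neuron markers was unnamed. The 36 h neuron-like cluster did not pass ase, so the class may not hold the same cells at both ages. The epithelium-like cells at 36 h also included clusters of 589 and 469 cells with TfAP-2 among their leading genes, while such clusters were unnamed at 20 h.

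Eip75B also parted between classes over the same interval. It was lower at 36 h in epithelium-like and sheath-like cells (-0.51 and -0.53) and higher in hemocyte-, glia- and neuron-like cells (1.01, 0.51 and 0.23). Eip78C and Hr4 were higher at 36 h in all 6 classes compared, by 1.88 in neuron-like to 4.53 in sheath-like cells for Eip78C and by 2.04 in shaft-like to 4.30 in glia-like cells for Hr4. All features had a median of 0.38 in neuron-like and 0.10 in epithelium-like cells, and 45.6% and 35.2% of them passed 2-fold there. The limits given for EcR on the make-up of sheath-, neuron- and epithelium-like cells apply here as well.

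For Hr3, glia-like cells already held 39.1 CPM (30.8 to 48.9) at 20 h, when epithelium-like cells held 1.14 CPM. By 36 h the order was turned, with 11.3 CPM in glia-like and 77.7 CPM in epithelium-like cells, and neuron-like cells were highest at 128 CPM. Glia-like cells were a single cluster of 182 cells at 20 h. At 36 h they were clusters of 173, 69 and 40 cells with different leading genes, so the class may not hold the same cells at both ages. At 12 h ftz-f1 was highest in tendon- and muscle-like cells, at 92.0 and 90.1 CPM in the female and 32.7 and 37.8 CPM in the male library, against 36.1 and 19.2 CPM in epithelium-like cells. From 20 h to 36 h ftz-f1 went from 8.23 to 30.2 CPM in shaft-like cells and from 27.3 to 10.5 CPM in glia-like cells. The highest class overlapped the second in all 6 libraries for usp and for ftz-f1, and in 5 of 6 for ERR. For ERR, neuron-like cells stood out at 36 h with 12.8 CPM (9.25 to 17.3). Class levels of ERR rest on few UMIs outside epithelium-like cells, so these overlaps do not show that its levels were alike.

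**Figure D4:**
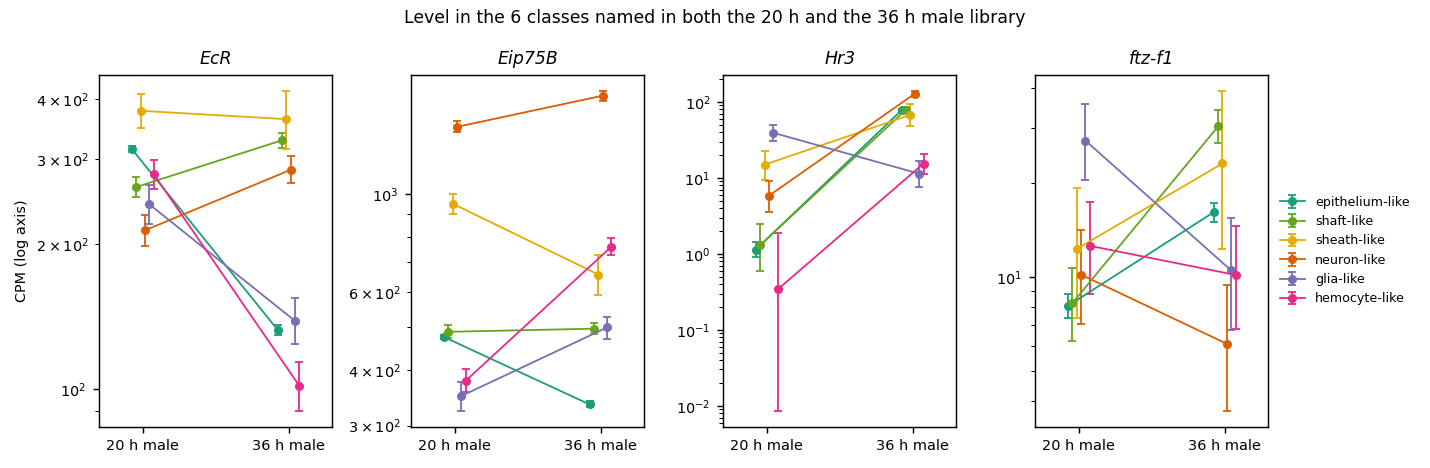
CPM on a log axis in the 6 classes named in both the 20 h and the 36 h male library, 1 line per class with exact Poisson 95% intervals. EcR is lower at 36 h in epithelium-, glia- and hemocyte-like cells and not in shaft-, sheath- and neuron-like cells, and Hr3 and ftz-f1 are lower at 36 h in glia-like cells.

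The epithelium-like clusters, which were formed without the members, also differed among themselves. In the 12 h libraries the cluster led by TfAP-2, a gene of the leg joints, held 727 female and 560 male cells. It had the highest EcR of all epithelium-like clusters (480 and 371 CPM) and the highest Eip75B (506 and 414 CPM), Hr3 and Hr4 in both. In the male library it had the lowest Eip78C, 4.0 CPM, where a cluster led by Ccp84Aa had 59.0 CPM. In the 20 h male library a cluster of 81 cells led by the antimicrobial gene AttA was lowest for 5 members and highest for 2, with 191 CPM of EcR and 189 CPM of Eip75B against 385 and 709 CPM in the highest clusters. Its low for ERR, 1.85 CPM (0.22 to 6.68), overlapped the highest cluster at 6.11 CPM (2.24 to 13.3), so not every such rank is beyond counting error. At 36 h EcR ranged from 59.4 to 198 CPM and Hr39 from 63.7 to 234 CPM over 11 clusters, and the same cluster of 365 cells, led by CG15023, was lowest in both and highest in ftz-f1 at 22.0 CPM.

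Clusters of low UMI count touched several members. Clusters with a median under the library median divided by 3 held 26.2%, 4.22%, 12.9% and 4.59% of cells over the male ages, 16.5% and 1.11% in the females, and 0.37% to 4.33% of the UMIs. EcR was higher in them than in the other cells of the library in all 6, by 1.44 to 3.52 on the log2 scale, and Eip75B in all 6, by 0.75 to 2.84. EcR spans 81.2 kb and Eip75B 114 kb of the genome, most of it intron. For usp and ERR, at 3.51 and 3.31 kb, the interval spanned 0 in every library. Over all genes the median ratio in the 12 h male library was 1.06 for genes over 50 kb and -0.01 for those under 5 kb. The sources used here do not say if intronic reads were kept. Without these clusters the 12 h male library had 234 CPM of EcR and the 12 h female library 327 CPM, and the count of members called was 3 rather than 4 from 20 h to 36 h, EcR being at -0.99.

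**Figure D5:**
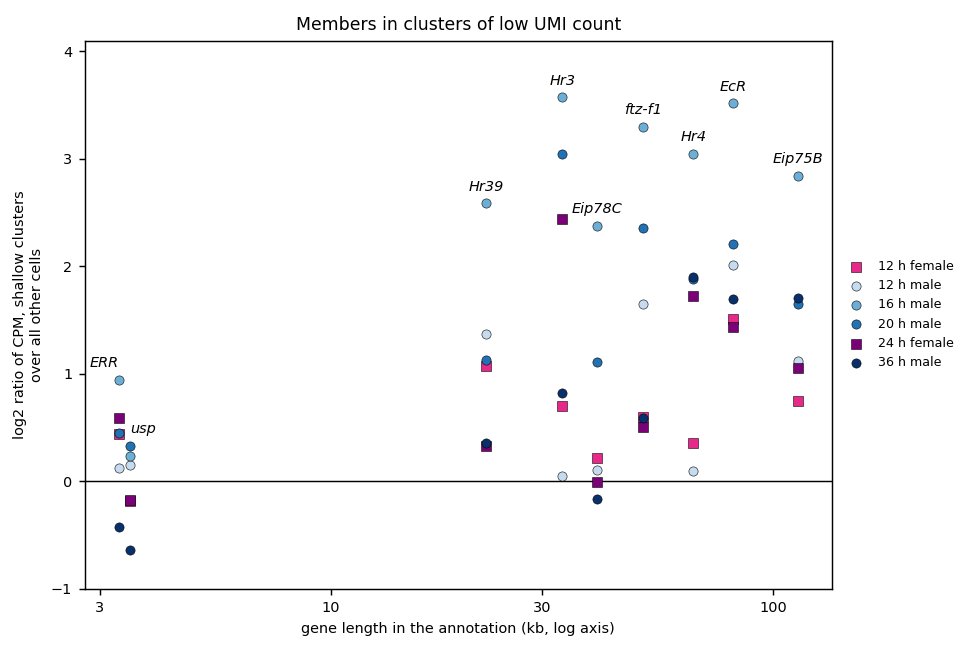
Log2 ratio of CPM between the clusters of low UMI count and all other cells of a library, for each gene against its length in the annotation on a log axis, 1 point per library. EcR and Eip75B lie above 0 in all 6 libraries, while the short genes usp and ERR lie on both sides of it.

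The rest of the pathway was described by 5 lists. Among 12 other nuclear receptors, 10 reached 50 UMIs between the sexes at 12 h, and 4 were called lower and 1 higher in the male, where 7.79% of all features were called lower and 3.44% higher. The lowest was Hr38, an activity-related receptor, with 0.59 CPM in the male against 2.34 in the female, and the patterning gene tll was the highest at under 1 CPM in both. From 12 h to 16 h, 5 of 10 were called higher, against 9.45% of all features, led by Hr96, a xenobiotic and lipid receptor, from 2.72 to 9.21 CPM, and Hnf4, a regulator of fat use, was lowest, from 44.6 to 32.0 CPM. From 16 h to 20 h none was called higher and 2 lower (13.8% of features were called lower), with tll on at most 87 UMIs. From 20 h to 36 h, 3 of 9 were called higher, against 20.3% of features, and none lower, led by svp, the COUP-TF orthologue, from 8.73 to 38.4 CPM. Between the females, 4 of 10 were called lower, against 13.4% of features, with the patterning gene kni going from 13.5 to 2.84 CPM, and Hr78 had the highest ratio (105 to 171 CPM).

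Of 7 transcription factors of the ecdysone response, Blimp-1, a repressor that delays ftz-f1 in the prepupa, had the highest ratio in 4 of the 5 comparisons. It was at 3.63, 15.2, 42.1 and 748 CPM over the male ages and at 3.75 and 62.5 CPM in the females. The pupal specifier br had the lowest ratio from 20 h to 36 h, 9.30 to 4.60 CPM, and between the females, 30.7 to 8.22 CPM. The larval temporal factor chinmo was lowest in the comparison of the sexes, 23.5 CPM in the male and 69.7 CPM in the female. Eip93F, which specifies adult fate, had the lowest ratio from 12 h to 16 h, 1912 to 1255 CPM. Kr-h1, a juvenile hormone response gene, was highest in that step and lowest in the next, on at most 62 UMIs.

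Genes that make, import and remove the hormone were mostly low, and 6 to 8 of the 12 in the matrices reached 50 UMIs in each comparison. Oatp74D, the importer that lets ecdysone into cells, was at 250 CPM at 20 h and 29.4 CPM at 36 h, a log2 ratio of -3.09 (-3.14 to -3.03), and at 176 CPM in the 12 h male against 243 CPM in the 12 h female. The activating enzyme gene shd was highest in the same step, 1.19 to 7.34 CPM, and 4 of 6 genes were called higher, where 20.3% of all features were. The transporter E23 led from 16 h to 20 h, 19.2 to 35.1 CPM, without being called, and shd was lowest there, 3.09 to 1.19 CPM. The synthesis genes nvd, phm and dib were the extremes elsewhere at under 2 CPM in every library named.

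Among 12 receptor cofactors, 2 were called higher and 3 lower from 20 h to 36 h, where 20.3% of all features were called higher and 13.7% lower, with the coactivator tai going from 302 to 790 CPM and rig from 4.44 to 1.60 CPM. In the other comparisons at most 1 was called, and rig was the lowest between the females as well, at a log2 ratio of -1.17, and from 16 h to 20 h, at -0.96. Hsp83, the Hsp90 chaperone, was at 3040, 970 and 3044 CPM at 12 h, 16 h and 20 h in males and at 4383 CPM in the 12 h female. The gene ash2 had the highest ratio between the sexes at 12 h, from 12 h to 16 h in males and between the females, never past 2-fold.

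Of 11 structural and secreted ecdysone-induced genes in the matrices, 10 were tested in each comparison. ImpE2 was at 451 CPM at 12 h and 4356 CPM at 16 h in males, and at 972 and 13236 CPM in the younger and older females. The prepupal cuticle gene Edg84A fell over the same steps, from 493 to 17.0 CPM and from 395 to 1.94 CPM. Edg91 was at 1.73, 33.0 and 0.14 CPM at 16 h, 20 h and 36 h. ImpE1 went from 22.1 to 473 CPM from 20 h to 36 h and was lower in the male at 12 h, 5.17 against 12.6 CPM, where ImpE3 was higher, 25.7 against 10.0 CPM.

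The genes whose levels were most like each member's were found over 46 library and class pairs and 9335 genes, by Pearson's r of log2(CPM + 1). The pairs share libraries and depth, so r is a description. For Eip78C the 2 closest were E23, the ABC transporter of the hormone removal list, at 0.87 and CG30154 at 0.84. For Eip75B they were mura and CG17698, both at 0.85, and for Hr39 aru and yellow-c, both at 0.85. For Hr4 they were GramD1B at 0.83 and Larp4B at 0.80, and for Hr3 lncRNA:CR46322, whose bases overlap it, at 0.81 and CG10019 at 0.78. For usp they were CG46280 at 0.75 and Rab4 at 0.73, and for ERR CG4751 at 0.74 and inv at 0.68. The least close were those of EcR, Idh at 0.65 and CG6959 at 0.64, and of ftz-f1, br at 0.64 and Tret1-1 at 0.61. Among the members, Eip75B and Hr4 had the highest r, 0.61, as did Hr3 and Hr4, and Eip75B and ftz-f1 the lowest, -0.50. With each library's mean subtracted, Eip75B and Hr4 stood at 0.48, Hr3 and Hr4 at 0.08 and Eip75B and ftz-f1 at -0.36, and the lowest was Eip78C with ERR at -0.48.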

How the data were processed

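Libraries were made with a 10x Genomics 3′ kit and deposited as UMI counts per gene and cell; per the file headers the counts came from Cell Ranger 7.0.0, and per the submitters' processing notes the build was BDGP6. Whether introns were counted, and the exact annotation, are not given in the sources used here. Gene positions are from the Ensembl annotation of BDGP6.54. No value was normalised by the authors. Columns of 2 male matrices (24 h and 30 h) with no matching sample were not used here.

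Barcodes with under 500 genes or over 10% mitochondrial UMIs were dropped, and 901 to 1552 barcodes per library were removed as doublets by an implementation of the Scrublet method at 0.8% per 1000 cells. Each library was clustered (2000 variable genes without the members and list genes, 30 components, 15 neighbours, leidenalg 0.10.2 at resolution 1). A cluster was named for the class with the most passing markers, at least 3. A marker passed when it was in at least 10% of the cluster's cells and at least 2-fold higher with 10 CPM added. Epithelium was given only where no other class had 3, and needed at least 6 of its 9 markers in at least 10% of cells. For these a log2 ratio of -1 or more was enough, so epithelium-like cells were not chosen by enrichment. A cluster stayed unnamed where another class led its top 10 genes, where its median was under the library median divided by 3, or, for trachea, without btl or trh. The last 2 rules were set after the clusters were seen. Unnamed cells were 23.6% to 35.8% of a library.

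Counts were summed and given as CPM. Ratios have exact conditional binomial intervals, and a feature was compared if the higher library held 50 UMIs or more. With 1 library per group no test was run, and intervals cover counting error only. The ratio code was checked on simulated counts. The text names all 9 members, for each list and comparison the genes with the highest and lowest ratio, and the 2 genes most like each member; genes leading a cluster and the genes overlapping a member are named besides, chosen after their values were seen. Members and lists were chosen with earlier results of these data known. EcI, CSN2 and Eip71CD of the lists were not matched by symbol. Alternatives were TMM scaling (edgeR 4.0.16), a minimum of 1000 genes, no doublet removal, thinning to 2000 UMIs, a mean over cells, epithelium-like cells, removal of roX cells, other UMI minimums (1 and 200), Leiden resolution 2 and, added after seeing the data, removal of clusters of low UMI count.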

Additional observations from a re-analysis of the deposited data

Results flagged for a closer look

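In 3 cases a member was at least 2-fold higher in 1 class and at least 2-fold lower in another over the same pair of libraries. Each class is 1 library at each age, so the differences between classes were not tested. Glia-like cells were a single cluster of 182 cells at 20 h and clusters of 173, 69 and 40 cells at 36 h. From 20 h to 36 h in males, Hr3 had a log2 ratio of 6.09 (5.76 to 6.44) in epithelium-like cells and -1.79 (-2.48 to -1.14) in glia-like cells, where 35.2% and 36.2% of all features passed 2-fold in either direction. Over the same ages ftz-f1 had 1.88 (1.46 to 2.32) in shaft-like and -1.38 (-2.13 to -0.67) in glia-like cells, and 48.0% of features passed 2-fold in shaft-like cells. From 12 h to 16 h in males, Eip78C had 1.07 (0.64 to 1.48) in hemocyte-like and -1.43 in sensory precursor-like cells, where the interval of -3.75 to 0.18 spans 0, and 16.4% and 18.4% of features passed 2-fold there. The 16 h sensory precursor-like value rests on 3 UMIs in 365 cells with a median of 2338 UMIs, against a median of 16745 at 12 h. At Leiden resolution 2, a cluster of 228 cells at 16 h with sensory precursor markers, led by grim, was unnamed for its low UMI count.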

How the results depend on the processing

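No paired analysis was possible because each group is 1 library. The number of members called between the sexes at 12 h was 2 rather than 1 in epithelium-like cells alone, Hr4 being added, and from 16 h to 20 h it was 1 rather than 2 with at least 1000 genes per cell and 1 with doublets kept, since Hr3 lay close to 2-fold. TMM log2 scaling factors were 0.07 at 16 h and -0.13 at 20 h, and TMM added Hr4 to the members called from 16 h to 20 h. The other counts of members stayed within 1.5 times the main count. In epithelium-like cells from 12 h to 16 h the 1 member called was Hr4 at 1.63, in place of Hr3, which stood at 0.91. Of 324 library ratios recomputed, 14 changed sign, none with a main value over 0.29 in size. Of 203 ratios of a class to epithelium-like cells, 6 changed sign at Leiden resolution 2 and 14 after thinning, and none of the 70 past 2-fold did. The features called in all moved with the minimum: with at least 1 UMI they were 4025, 5908, 5203, 6180 and 5454, against 1015, 1817, 2058, 3270 and 2486, for the 3 comparisons up to 20 h, 20 h to 36 h and the females. With at least 200 UMIs they were 576 between the sexes and 1150 from 12 h to 16 h. With library means subtracted, 1 of the 2 most like genes remained for EcR, Hr39 and ERR and neither did for the other 6 members. Depth limits Hr3 before 36 h and the small classes, where many values rest on under 50 UMIs.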
